A study of Mus musculus with 7 samples.

Results

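The Indian hedgehog axis of the uterus was examined as 9 genes given by symbol: Ihh, Ptch1, Smo, Gli1, Gli2, Gli3, Hhip, Nr2f2 and Hand2. They were chosen by name for their place in the pathway, with earlier results of these data known. Of these, 9 of 9 were found among the 24964 gene symbols of the expression table. RNA was sequenced from whole uterus of 12-week-old mice in diestrus, a phase of the estrous cycle. The 3 libraries of genotype Pgrcre/+ are called controls 1, 2 and 4 after their replicate numbers. The 4 libraries of genotype Pgrcre/+Foxl2LsL/+ are called Foxl2LsL 1 to 4. Every mouse of either group thus carried a Cre recombinase allele at the progesterone receptor gene Pgr, which is expressed in uterine epithelium, stroma and muscle, and no library came from a mouse without Cre. The series was set up, per its title, to follow raised FOXL2, a transcription factor of the forkhead family, in the uterus. The labels number the libraries but do not say how many animals went into each, so p-values measure the spread between these libraries.

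In the mouse uterus, progesterone acting through its receptor induces Indian hedgehog, a secreted protein made by the epithelium. The protein binds the receptor PTCH1 on stromal cells, which releases the membrane protein SMO from inhibition and lets GLI transcription factors act in the nucleus. Gli1, Ptch1 and Hhip are themselves transcribed in response to the signal and serve as its readouts in many tissues. The nuclear receptor NR2F2 (COUP-TFII) and the basic helix-loop-helix factor HAND2 act in the stroma on the progesterone side of this circuit. HAND2 is known for restraining fibroblast growth factors that drive the epithelium to divide.

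Values are FPKM, fragments counted on a gene and scaled to its length and to the size of the library, so levels can be compared between genes. The whole-number fragments behind them gave library sizes of about 47800000 to 67200000 fragments. Foxl2 itself was at 11.1, 19.3 and 12.9 FPKM in controls 1, 2 and 4, and at 12.7, 14.3, 14.8 and 17.2 FPKM in Foxl2LsL 1 to 4. Its groups overlapped (log2 fold change 0.06, adjusted p = 0.818, limma), so the Foxl2 values do not tell the genotypes apart and every direction below is that of the libraries as labelled. Its antisense neighbour Foxl2os, which overlaps Foxl2 by 12 bases, was at 23.6, 37.5 and 22.6 FPKM in controls and at 4.72, 6.75, 5.50 and 5.87 FPKM in Foxl2LsL 1 to 4, with the groups apart. Defining markers of epithelium, stroma and smooth muscle were abundant in each library. The oviduct gene Ovgp1 was at 291 FPKM in control 2 and at 1.65 to 19.7 FPKM in the other 6 libraries, and the summed adipocyte markers ran from 0.460 to 253 FPKM without following the genotype. Whole-tissue RNA cannot tell fewer cells of a type from less RNA per cell, and this holds for each value below.

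The sequences just before the starts of Ihh, Hand2 and Nr2f2 are shown because these are the axis' ligand and its stromal transcription factors, and the first pair changed while the last was not called. Each line holds the 250 bases before the gene's start, 5′ to 3′ on the gene's strand, from RefSeq on GRCm38.p6. Capitals mark a match to the forkhead motif TAAACA. Ihh lies at chr1:74951673-74951922 on the minus strand, Hand2 at chr8:57320733-57320982 on the plus strand and Nr2f2 at chr7:70366747-70366996 on the minus strand.
Ihh: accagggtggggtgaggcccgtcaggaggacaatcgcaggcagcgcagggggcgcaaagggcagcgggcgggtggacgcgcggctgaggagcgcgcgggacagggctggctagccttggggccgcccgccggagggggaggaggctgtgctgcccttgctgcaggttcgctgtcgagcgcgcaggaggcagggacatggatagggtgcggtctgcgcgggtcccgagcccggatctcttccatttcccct
Hand2: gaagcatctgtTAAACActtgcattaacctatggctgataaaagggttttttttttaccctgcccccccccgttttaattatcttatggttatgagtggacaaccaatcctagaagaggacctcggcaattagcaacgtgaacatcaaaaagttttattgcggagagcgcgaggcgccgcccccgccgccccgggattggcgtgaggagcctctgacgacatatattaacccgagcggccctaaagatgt
Nr2f2: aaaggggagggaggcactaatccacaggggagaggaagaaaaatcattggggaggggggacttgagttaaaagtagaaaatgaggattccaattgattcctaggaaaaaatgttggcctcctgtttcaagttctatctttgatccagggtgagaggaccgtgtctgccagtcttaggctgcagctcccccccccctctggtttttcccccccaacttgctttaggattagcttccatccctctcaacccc

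The stretch before Ihh was 72.0% G or C with 24 CG pairs. The one before Nr2f2 was 50.0% G or C with 1 CG pair, and the one before Hand2 was 49.2% with 15. The median of all 32851 promoters of that length was 52.4% G or C with 6 CG pairs. Of the 8 axis genes with an entry, which leaves out Gli1, 7 had more CG pairs than that median, from 15 to 41. The windows of Ptch1, which held the 41, and Gli3 lie inside the GENCODE spans given below, before internal starts. On either strand, the GLI motif GACCACCCA, the steroid receptor core ACANNNTGT and the DR1 core GGTCANAGG had 0 matches in these 8 windows, and 0.225%, 5.84% and 1.43% of all promoters held them. The forkhead motif TAAACA matched in the Hand2 window alone, 239 to 234 bases before the start, and 12.0% of all promoters held it. A match is a run of letters and not a measured binding site.

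Of the 9 genes, 6 were lower in the Foxl2LsL libraries, 0 were higher and 3 were not called (limma, Benjamini-Hochberg adjusted p under 0.05 over all 13335 genes tested). Across all genes tested 23.9% were called lower and 16.7% higher. Since the 9 genes were chosen with earlier results of these data known, their counts beside such shares are descriptive only. The genes that fell were Ihh, Ptch1, Smo, Gli1, Gli2 and Hand2, and those not called were Gli3, Hhip and Nr2f2. The libraries of the groups did not overlap for 6 of 9 genes, all lower, against 27.9% of all genes tested. The median log2 fold change was -0.73 over the 9 genes and -0.05 over all tested. Of the 9, 8 had a mean of at least 1 FPKM over the 7 libraries, and Hhip was kept in the fit below that level. Leaving out any single library, control 4 included, gave 6 lower and 0 higher each time.

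**Figure D1:**
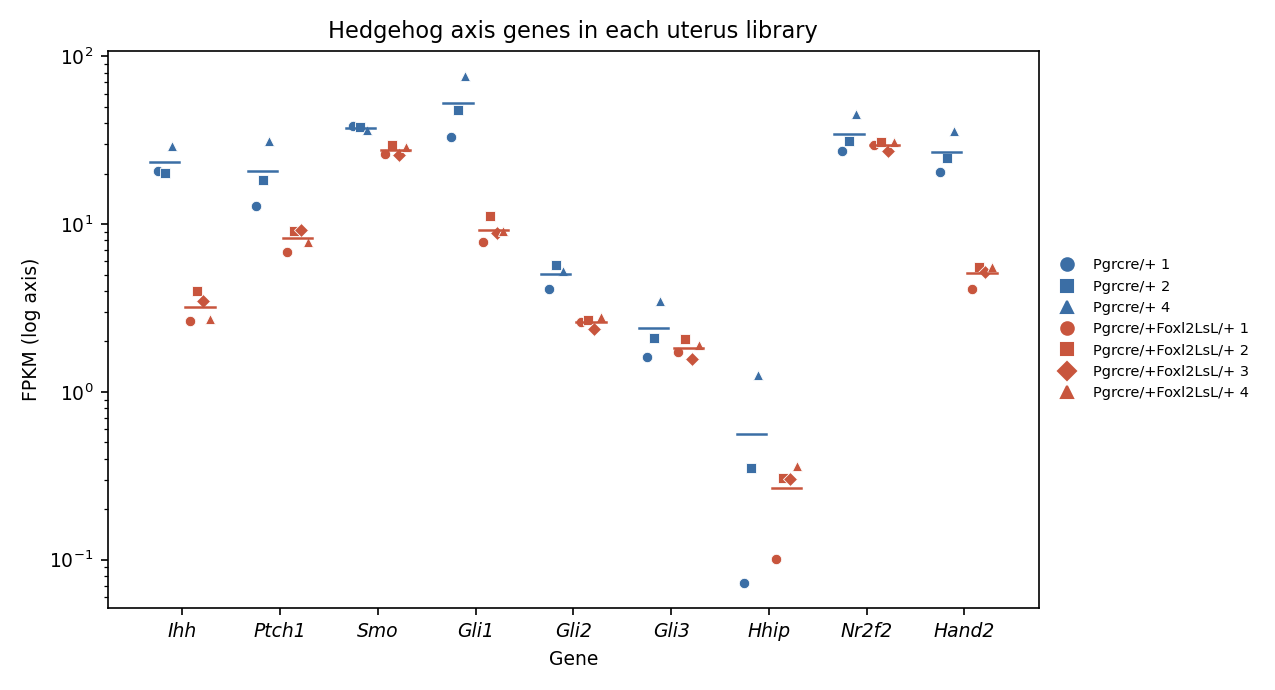
FPKM on a log axis of each axis gene in each library, with points for libraries, shapes for replicate numbers, colours for genotypes and bars for group means. Points of the genotypes lie apart for Ihh, Ptch1, Smo, Gli1, Gli2 and Hand2 and overlap for Gli3, Hhip and Nr2f2, and control 4 is the highest control for 7 of the 9 genes.

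Ihh, the ligand, lies on chromosome 1 from 74945315 to 74951672 (minus strand, GRCm38, GENCODE M21). It was at 20.9, 20.3 and 29.1 FPKM in controls 1, 2 and 4. In Foxl2LsL 1 to 4 it was at 2.64, 3.97, 3.47 and 2.71 FPKM. Each Foxl2LsL library was far below each control, and the lowest control was 5.12 times the highest Foxl2LsL library. Control libraries averaged 23.4 ± 4.94 FPKM (SD, n = 3) and Foxl2LsL libraries 3.20 ± 0.637 FPKM (SD, n = 4), a fall of 7.32-fold. The fold change of log2(FPKM + 1) was -2.53 (SE 0.16, 95% interval -2.91 to -2.16, adjusted p = 0.000131, limma). Only 0.142% of the genes tested had a larger fall. An exact permutation test (two-sided) gave p = 0.0571, the smallest that 3 against 4 libraries allow, and it took the same value for each of the 6 genes that fell.

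The epithelial markers did not fall with Ihh. Of 10 listed, 3 were higher and 0 lower past the threshold, where 16.7% of all genes tested were higher and 23.9% lower. The summed level of the 10 was 853 to 1568 FPKM in controls and 1229 to 1893 FPKM in Foxl2LsL libraries. Within each library, log2 Ihh minus the mean of these markers was -2.64 to -1.18 in controls and -5.42 to -4.36 in Foxl2LsL libraries. The groups lay apart, with a shift of -3.05 log2 units (two-sided exact permutation p = 0.0571, adjusted p = 0.0743 over 13 such comparisons). Gland markers moved with Ihh in part. Of 8 listed, 5 were tested: 3 were lower (Foxa2, Cxcl15 and Aldh1a1), 0 higher and 2 not called (Sox9 and Wfdc3). The summed level of all 8 was 74.5 to 100.2 FPKM in controls and 20.5 to 25.2 FPKM in Foxl2LsL libraries. Aldh1a1 and Cxcl15 made up most of that sum. The part of the gland markers in the Ihh result was not tested.

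The receptor genes fell less than the ligand. Ptch1, the hedgehog receptor (chromosome 13, 63508328 to 63573598, minus strand), was at 12.7, 18.3 and 31.2 FPKM in controls 1, 2 and 4 and at 6.85, 9.16, 9.17 and 7.85 FPKM in Foxl2LsL 1 to 4. The groups lay apart, although control 1 was only 1.39 times the highest Foxl2LsL library. The log2 fold change was -1.15 (SE 0.26, 95% interval -1.76 to -0.54, adjusted p = 0.0109, limma), and the means differed by 2.51-fold.

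Smo, the signal-passing membrane protein (chromosome 6, 29735503 to 29761365, plus strand), had the smallest fall of the 6 and the tightest replicates. It was at 38.7, 38.0 and 36.3 FPKM in controls 1, 2 and 4 and at 26.3, 29.6, 26.0 and 29.0 FPKM in Foxl2LsL 1 to 4. It averaged 37.7 ± 1.22 FPKM (SD, n = 3) in controls and 27.7 ± 1.86 FPKM (SD, n = 4) in Foxl2LsL libraries, with a log2 fold change of -0.43 (SE 0.07, adjusted p = 0.00322, limma). The level of Ptch1 relative to Smo overlapped between the groups, with Foxl2LsL 3 above control 1 (shift -0.72 log2 units, two-sided exact permutation p = 0.114). Without control 4 that shift was -0.37.

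Hhip, a membrane protein that binds hedgehog ligands and limits their reach (chromosome 8, 79965851 to 80058006, minus strand), was scarce. It was at 0.073, 0.351 and 1.26 FPKM in controls 1, 2 and 4, and at 0.101, 0.307, 0.304 and 0.363 FPKM in Foxl2LsL 1 to 4. The controls spanned 17.2-fold and held both the lowest and the highest of the 7 values, which rest on 42 to 750 fragments. The log2 fold change was -0.23 (95% interval -0.81 to 0.34, adjusted p = 0.485, limma), a scale that understates changes at such low levels, and it was 0.07 without control 4.

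Of the 3 GLI genes, Gli1 and Gli2 fell and Gli3 was not called. Gli1, the activator whose own transcription follows the signal (chromosome 10, 127329882 to 127341974, minus strand), was at 33.2, 48.1 and 76.4 FPKM in controls 1, 2 and 4. Foxl2LsL 1 to 4 had 7.87, 11.3, 8.85 and 9.13 FPKM. Every Foxl2LsL library was below every control, by at least 2.95-fold, even though the controls themselves spanned 2.30-fold. Control libraries averaged 52.6 ± 22.0 FPKM (SD, n = 3) and Foxl2LsL libraries 9.28 ± 1.42 FPKM (SD, n = 4), with a log2 fold change of -2.31 (SE 0.25, 95% interval -2.90 to -1.72, adjusted p = 0.000713, limma). Antisense genes are annotated across Gli1 (Gm47200 over 9584 bases, Arhgap9 over 62). Without a stated strand setting, reads from the shared bases cannot be told apart from those of Gli1. Arhgap9 averaged 1.71 FPKM in controls and 1.58 FPKM in Foxl2LsL libraries and was not called (log2 fold change -0.07, adjusted p = 0.643, limma). Gm47200 is not named in the table.

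Gli2, the main activator of the primary response (chromosome 1, 118834132 to 119053619, minus strand), was at 4.10, 5.70 and 5.27 FPKM in controls 1, 2 and 4 and at 2.61, 2.69, 2.36 and 2.80 FPKM in Foxl2LsL 1 to 4. It fell by 0.73 on the log2 scale (SE 0.11, adjusted p = 0.00225, limma), and its groups lay apart. Gli3, which acts largely as a repressor in the absence of ligand (chromosome 13, 15463235 to 15730026, plus strand), was at 1.62, 2.09 and 3.49 FPKM in controls and at 1.73, 2.06, 1.57 and 1.91 FPKM in Foxl2LsL 1 to 4. Foxl2LsL values ran from just below control 1 to just below control 2, and control 4 stood well above both. The log2 fold change of Gli3 was -0.24 (95% interval -0.66 to 0.18, adjusted p = 0.325, limma) and -0.02 without control 4.

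The balance between the GLI genes differed with genotype. Gli1 exceeded Gli3 by 3.70 to 4.11 log2 units in controls and by 1.70 to 2.0 in Foxl2LsL libraries, a shift of -2.07. Gli1 exceeded Gli2 by 2.74 to 3.63 log2 units in controls and by 1.3 to 1.73 in Foxl2LsL libraries, a shift of -1.58. Neither set of values overlapped (two-sided exact permutation p = 0.0571 for each, adjusted p = 0.0743 over 13 comparisons). The GLI genes share their zinc finger region, and how reads that match more than 1 gene were assigned is not given in the sources used here.

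The stromal transcription factors parted ways. Hand2 (chromosome 8, 57320983 to 57324633, plus strand) was at 20.5, 24.9 and 35.7 FPKM in controls 1, 2 and 4 and at 4.09, 5.53, 5.18 and 5.53 FPKM in Foxl2LsL 1 to 4. The lowest control was 3.71 times the highest Foxl2LsL library. Control libraries averaged 27.1 ± 7.84 FPKM (SD, n = 3) and Foxl2LsL libraries 5.08 ± 0.681 FPKM (SD, n = 4), with a log2 fold change of -2.18 (SE 0.18, 95% interval -2.60 to -1.75, adjusted p = 0.000295, limma). The antisense gene Hand2os1 overlaps 3251 bases of Hand2 on the other strand in this annotation. It is not named in the table, and the same limit of strand holds for Hand2.

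Nr2f2 (chromosome 7, 70351944 to 70366735, minus strand) was at 27.3, 31.2 and 45.3 FPKM in controls 1, 2 and 4 and at 29.7, 30.7, 27.3 and 31.1 FPKM in Foxl2LsL 1 to 4. All 4 Foxl2LsL values lay between those of controls 1 and 2, and control 4 stood above the rest. The log2 fold change was -0.18 (95% interval -0.55 to 0.18, adjusted p = 0.386, limma) and 0.02 without control 4, so a fall as large as that of Hand2 lies outside the interval. The overlapping antisense gene B130024G19Rik was not called either (log2 fold change -0.36, adjusted p = 0.259, limma). Hand2 and Nr2f2 were near parity in controls, where log2 Hand2 minus Nr2f2 was -0.40 to -0.31, and this difference was -2.59 to -2.20 in Foxl2LsL libraries. The shift was -1.99 log2 units (two-sided exact permutation p = 0.0571, adjusted p = 0.0743 over 13 comparisons). Within the groups, Hand2 minus Nr2f2 had an SD of 0.04 in controls and 0.17 in Foxl2LsL libraries.

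**Figure D2:**
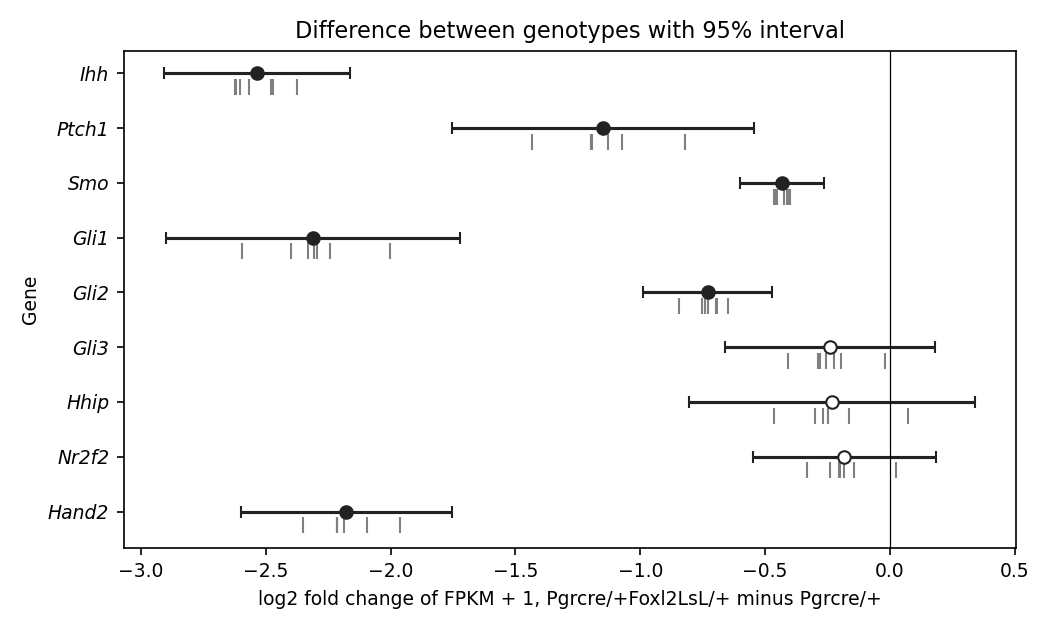
Log2 fold change of FPKM + 1 between genotypes for each axis gene, with 95% limma intervals. Filled points passed the adjusted threshold, and grey ticks are the fits that each left out 1 library: the intervals of Ihh, Gli1 and Hand2 end at -2.16, -1.72 and -1.75, while the intervals of Gli3, Hhip and Nr2f2 span 0.

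Set against stromal markers, the stromal genes of the axis did not share a single shift. Of 10 stromal markers, 4 were lower (Thy1, Mme, Pdgfrb and Vim), 1 was higher (Dcn) and 5 were not called, so this yardstick itself changed with genotype. Their summed level was 1490 to 2734 FPKM in controls and 1928 to 2246 FPKM in Foxl2LsL libraries. Relative to the mean log2 value of these markers, Hand2 shifted by -1.60, Gli1 by -1.73 and Ptch1 by -0.57 log2 units, and their groups lay apart. Gli2 shifted by -0.15 with overlapping groups (two-sided exact permutation p = 0.343). Nr2f2 and Gli3 stood higher relative to the markers, by 0.39 and 0.34 log2 units with groups apart, and Hhip by 0.35 with overlapping groups. The log2 fold changes of Nr2f2, Gli3 and Hhip themselves were -0.18, -0.24 and -0.23, so they stood higher only against a yardstick that fell. None of these 7 comparisons could pass a threshold of 0.05, since 0.0571 is the smallest exact p. Beside each marker count here, the shares over all genes tested were 23.9% lower and 16.7% higher. Smooth muscle markers were higher in part, 5 of 10 past the threshold and 0 lower. Their summed levels were 903 to 1746 FPKM in controls and 1587 to 2025 FPKM in Foxl2LsL libraries. Endothelial markers moved in the direction of the stromal genes that fell: 6 of 8 were lower, 1 (Cldn5) was higher and 1 was not called, with summed levels of 170.6 to 213.7 FPKM in controls and 130.3 to 152.1 FPKM in Foxl2LsL libraries. Among them Cdh5, the junction protein of vessel walls, fell by 1.17 and Emcn by 0.68 log2 units. What muscle and vessels contribute to the stromal values was not tested.

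**Figure D3:**
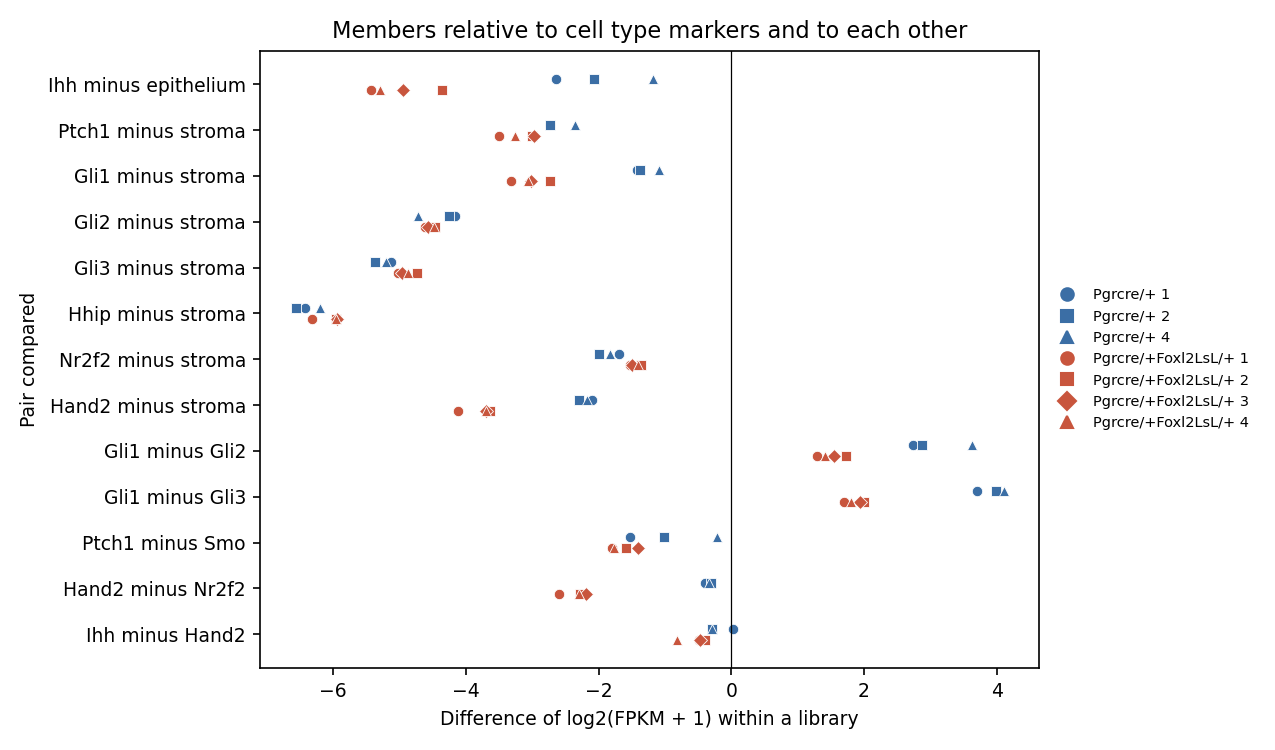
Difference of log2(FPKM + 1) within each library between the genes or marker means named on the vertical axis, with colours for genotypes and shapes for replicate numbers. Hand2 minus Nr2f2 lies between -0.40 and -0.31 in controls and between -2.59 and -2.20 in Foxl2LsL libraries, whereas Gli2 minus stroma overlaps.

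The order of the levels differed between the groups. In controls the mean FPKM ran from Gli1 (52.6) through Smo (37.7), Nr2f2 (34.6), Hand2 (27.1), Ihh (23.4) and Ptch1 (20.7) to Gli2 (5.02), Gli3 (2.40) and Hhip (0.561). Neighbours from Gli1 down to Ptch1 overlapped in their ranges. Within libraries, Nr2f2 was above Hand2 in 3 of 3 controls, and the other neighbours among these held their order in 2 of 3. The steps below Ptch1 did not overlap. In Foxl2LsL libraries Nr2f2 (29.7) and Smo (27.7) led, with overlapping ranges and Nr2f2 above Smo in 4 of 4 libraries. Gli1 (9.28) and Ptch1 (8.26) followed and overlapped each other, then Hand2 (5.08), Ihh (3.20), Gli2 (2.61), Gli3 (1.81) and Hhip (0.269). Ihh and Gli2 overlapped there, while in controls every Ihh value was above every Gli2 value.

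For 8 of the 9 genes, all but Smo, the coefficient of variation was larger in controls than in Foxl2LsL libraries. Control 4 held the highest control value of 7 of 9 genes (Ihh, Ptch1, Gli1, Gli3, Hhip, Nr2f2 and Hand2), and control 1 the lowest of 7. Over all genes tested, control 4 was the highest control for 33.3%. Its excess over the mean of controls 1 and 2 was 1.41-fold for Ihh, 1.57-fold for Hand2, 1.55-fold for Nr2f2, 1.88-fold for Gli1 and 2.01-fold for Ptch1. For Smo the ratio was 0.947. Control 4 also had the lowest summed epithelial markers of all 7 libraries (853 FPKM) and the highest summed stromal markers (2734 FPKM), and what these contribute was not tested. The coefficient of variation of Gli1 was 41.8% in controls and 15.3% in Foxl2LsL libraries, that of Nr2f2 27.4% and 5.65%, and that of Smo 3.22% and 6.73%.

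The genes whose pattern over the 7 libraries was most like 3 of the members were found by the root mean square difference of log2(FPKM + 1), each gene taken relative to its control mean. For Hand2 the nearest was Prdm1, which encodes the repressor BLIMP1. Prdm1 was at 8.82, 11.8 and 14.9 FPKM in controls and at 1.34, 2.10, 2.06 and 1.64 FPKM in Foxl2LsL 1 to 4, a difference from Hand2 of 0.10 log2 units. Lipg, an endothelial lipase gene (0.13), and Adh6a, an alcohol dehydrogenase gene (0.15), came next. Their Foxl2LsL means were only 0.27 and 0.072 FPKM, where log2(FPKM + 1) understates changes. As ratios of means Lipg fell by 19.3-fold and Adh6a by 52.0-fold, against 5.33-fold for Hand2, so they are near Hand2 on this scale only. For Ihh the nearest was Bmp7, a bone morphogenetic protein gene (0.19). Gstm7, a glutathione transferase gene (0.20), and Srgn, a proteoglycan core protein gene (0.21), followed. Bmp7 averaged 16.9 ± 3.24 FPKM (SD, n = 3) in controls and 2.09 ± 0.409 FPKM (SD, n = 4) in Foxl2LsL libraries. For Nr2f2 the nearest were Gjc1, a connexin gene (0.06), Gli3 (0.06) and Evc, a cilium gene of the hedgehog relay (0.06). None of them was called. These distances describe the libraries and carry no test, and Ihh and Hand2 fell in the same comparison that sets most of the distance.

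**Figure D4:**
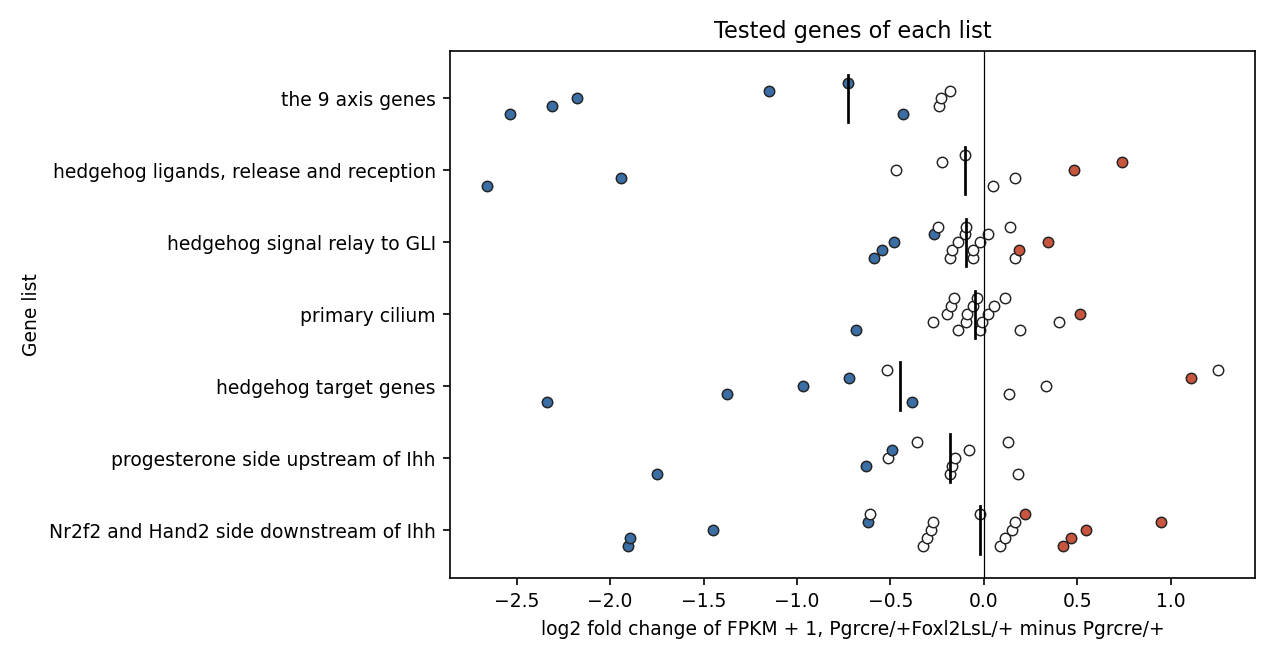
Log2 fold change of FPKM + 1 between genotypes for each tested gene of 7 lists. Blue points were called lower, red higher and white not called, points are spread vertically for visibility, and black bars are medians, from -0.73 for the 9 axis genes to -0.02 for the list downstream of Ihh.

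Other genes of hedgehog reception were called in either direction. Of 12 listed, 9 were tested, 2 were lower, 2 higher and 5 not called, with a median log2 fold change of -0.10. Both shares were near those over all genes tested, 23.9% lower and 16.7% higher. The higher count was 1 without control 1 or control 2. With no filter on level, all 12 were tested, 4 lower and 2 higher. Scube1, which encodes a secreted and cell-surface protein of the SCUBE family, fell by 2.66 on the log2 scale, with 36.9 ± 11.2 FPKM (SD, n = 3) in controls and 4.86 ± 0.732 FPKM (SD, n = 4) in Foxl2LsL libraries (adjusted p = 0.000178, limma). Scube2, which helps release the lipid-bearing ligand, rose by 0.74 log2 units from 1.07 to 2.40 FPKM, and the co-receptor gene Boc rose by 0.48 from 4.42 to 6.56 FPKM. The rise of Scube2 lost its call without control 1 or control 2 (adjusted p = 0.0540 and 0.0681, limma).

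The other ligands were scarce. Shh was listed at 0 in 6 libraries and at 0.006 FPKM in Foxl2LsL 3. Dhh was at 0.376, 0.505 and 0.877 FPKM in controls and at 0.230, 0.188, 0.214 and 0.157 FPKM in Foxl2LsL 1 to 4, below the level tested. Ihh was therefore the most abundant of the 3 hedgehog ligand genes in each library.

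In the relay from SMO to the GLI proteins, 18 of 18 genes were tested, 4 were lower, 2 higher and 12 not called, with a median of -0.10. Neither share was above that over all genes tested (23.9% lower and 16.7% higher). The negative regulators Gpr161 and Sufu fell by 0.59 and 0.54 log2 units, and Kif7, a kinesin of the cilium tip that organises the GLI proteins, by 0.48. Sufu averaged 12.2 ± 1.91 FPKM (SD, n = 3) in controls and 7.99 ± 0.248 FPKM (SD, n = 4) in Foxl2LsL libraries. Spop, a ubiquitin ligase adaptor that acts on GLI proteins, rose by 0.34. The lower count was 2 in the fits without control 2, control 4, Foxl2LsL 1, Foxl2LsL 3 or Foxl2LsL 4, and the higher count was 1 in each of the 7 such fits. Kif7 lost its call without control 2, control 4, Foxl2LsL 1, Foxl2LsL 3 or Foxl2LsL 4 (adjusted p = 0.0738 to 0.0874, limma). Of 18 genes of the primary cilium, the organelle that houses the pathway, 1 was lower, 1 higher and 16 not called. Tulp3, which carries Gpr161 into the cilium, fell by 0.68, and Bbs4, of the complex that carries cargo in the cilium, rose by 0.52 log2 units. The lower count was 2 without control 1 or Foxl2LsL 2, and the higher count 2 without control 4. With array weights, a setting that called 7233 genes in all against 5407, the cilium counts were 5 lower and 2 higher.

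Genes listed as hedgehog targets were mixed. Of 12 listed, 10 were tested, 5 were lower, 1 higher and 4 not called, with a median of -0.45, where 23.9% of all genes tested were lower and 16.7% higher. Snai1, a transcription factor of mesenchymal cells, averaged 17.9 ± 5.74 FPKM (SD, n = 3) in controls and 2.66 ± 0.649 FPKM (SD, n = 4) in Foxl2LsL libraries, a called fall, and Osr2 and the Notch ligand gene Jag2 fell by 1.38 and 0.97 log2 units. Ccnd2, a G1 cyclin gene, rose from 6.75 to 16.0 FPKM. Mycn was not called (adjusted p = 0.169, limma) and was named after its values were seen: it ran from 1.34 FPKM in control 4 to 21.8 FPKM in control 1 and from 18.3 to 22.7 FPKM in Foxl2LsL libraries. The lower count was 4 without control 2 or without any one Foxl2LsL library. The higher count was 3 without control 1 and 2 without Foxl2LsL 3.

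On the progesterone side upstream of Ihh, 11 of 13 genes were tested, 3 were lower, 0 higher and 8 not called, with a median of -0.18. The lower share was near the 23.9% over all genes tested, and the lower count was 1 with median centring. With no filter on level, all 13 were tested, 2 lower and 1 higher. Calca was below the level tested and was named after its values were seen. It was at 0.083, 0.059 and 0.544 FPKM in controls and at 0.857 to 1.76 FPKM in Foxl2LsL libraries. Areg, also below that level, went the other way. Pgr itself, named after its values were seen, was at 36.5, 39.0 and 24.8 FPKM in controls and at 25.5, 26.5, 25.8 and 23.8 FPKM in Foxl2LsL 1 to 4, with control 4 among the Foxl2LsL values (adjusted p = 0.0845, limma). Fkbp5, a co-chaperone gene induced by progestins and glucocorticoids, was at 3.98, 3.72 and 9.67 FPKM in controls and at 0.994, 1.05, 0.715 and 0.764 FPKM in Foxl2LsL 1 to 4. It fell by 1.75 log2 units (adjusted p = 0.00245, limma). Egfr and Gata2 fell by 0.63 and 0.49, close to the threshold (adjusted p = 0.0412 and 0.0422, limma). The lower count was 1 without any one Foxl2LsL library, 2 without control 1 or control 2 (1 higher in each) and 4 without control 4. The Egfr value was -0.35 (still called) and that of Gata2 -0.30 (not called) without control 4. Sox17, a transcription factor of uterine epithelium and endothelium, had a log2 fold change of -0.08 (adjusted p = 0.712, limma).

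Downstream of Ihh, 19 of 20 genes on the Nr2f2 and Hand2 side were tested, 4 were lower, 5 higher and 10 not called, with a median of -0.02. Over all genes tested 23.9% were lower, near this list's share, and 16.7% higher. With array weights 7 of the list were lower. The stromal homeobox genes Hoxa11 and Hoxa10 fell by 1.90 and 1.45 log2 units and Twist2, a basic helix-loop-helix gene, by 1.89. Twist2 averaged 32.1 ± 9.87 FPKM (SD, n = 3) in controls and 7.63 ± 0.443 FPKM (SD, n = 4) in Foxl2LsL libraries. Its relative Twist1, named after its values were seen, rose from 3.81 to 5.64 FPKM (log2 fold change 0.47, adjusted p = 0.00309, limma). Fgfr1, a fibroblast growth factor receptor gene, rose by 0.95 log2 units, with 8.34 ± 0.506 FPKM (SD, n = 3) in controls and 17.0 ± 1.22 FPKM (SD, n = 4) in Foxl2LsL libraries. The remaining calls, also named after their values were seen, were rises of Esr1 (0.55), Fgf2 (0.42) and Bmpr1a (0.22) and a fall of Fgfr3 (-0.62). Bmpr1a and Fgf2 were close to the threshold (adjusted p = 0.0496 and 0.0401, limma), and the values of Fgf2 rest on 34 to 84 fragments. The higher count was 3 in 6 of the 7 fits that left out a library and 5 without Foxl2LsL 2. The lower count was 3 without control 2 or without any one Foxl2LsL library, and 5 without control 4.

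The growth factor genes tied to Hand2 in the uterus did not move together, and they too were named after their values were seen. Fgf1, Fgf9 and Fgf18 were not called (log2 fold changes -0.61, 0.17 and -0.33, adjusted p = 0.260, 0.640 and 0.256, limma). Fgf2 was at 0.772, 1.03 and 0.965 FPKM in controls and at 1.85, 1.11, 1.55 and 1.86 FPKM in Foxl2LsL 1 to 4. Of the secreted factors placed downstream of Nr2f2, Bmp2 had group means of 1.65 and 1.59 FPKM and Wnt4 of 14.9 and 13.0 FPKM, and neither was called. Wnt4 was at 3.43 FPKM in control 4, below each of the other 6 libraries.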

How the data were processed

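RNA was extracted with TRIzol, per the labels' protocols. The authors deposited 1 table of FPKM values with 1 column per library and another deposited value, the gene length in bases, per the file headers. The submitters' processing notes name STAR 2.5.2b, featureCounts 1.5.0-p1 and the build mm10. Annotation, strand setting and filters are not given in the sources used here. FPKM times length fell on whole multiples of a step in each library (100.0% of 1647 to 1803 low values within 0.1 of a whole number), which gave the fragments. The 95% intervals are limma's and rest on the spread between libraries.

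Values were taken as log2(FPKM + 1), a scale that understates changes of low genes. Genes with a mean of at least 1 FPKM, plus the 9 axis genes and Foxl2, were fitted with limma 3.58.1 (R 4.3.3, intensity trend) without covariates, with Benjamini-Hochberg adjustment over 13335 genes at 0.05. Relative levels used a two-sided exact permutation test over 35 splits. The steps were run on simulated data with the same dispersion for every gene, a simpler setting than these libraries. That run checks the steps and not the results. Python 3.11.15 and matplotlib 3.10.9 drew the figures. Coordinates are from GENCODE M21 on GRCm38 and promoters from RefSeq. The members, lists and tests were chosen with earlier results of these data known. Named by rule were the 9 genes, Foxl2, Shh, Dhh, up to 4 called genes per list by size of change and the 3 genes most like Ihh, Nr2f2 and Hand2, and some genes that the rule names are not reported here. Of the 10 marker lists, epithelium, gland, stroma, smooth muscle and endothelium are given beside results, and of the rest luminal epithelium had 1 gene lower and 1 higher of 5 tested, leukocytes 0 and 2 of 6, mesothelium 1 and 0 of 5, and adipocytes (4) and ovary and oviduct (2) 0. The alternatives are given in the closing section.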

Additional observations from a re-analysis of the deposited data

How the results depend on the processing

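Under 17 alternatives (other scalings, filters and pseudocount, no intensity trend, array weights, limma-voom on the recovered fragments, each library left out and a replicate block), the count of axis genes called stayed at 6 lower and 0 higher. Ihh, Ptch1, Smo, Gli1, Gli2 and Hand2 kept direction and call in each, with highest adjusted p of 0.0118, 0.0329, 0.0385, 0.0138, 0.0238 and 0.0114 (limma). With each of the 7 libraries left out in turn, Ptch1 ranged from -1.44 to -0.82 and Gli1 from -2.59 to -2.0 (log2 fold change). Among genes not called, the direction turned without control 4 for Hhip (range with a library left out -0.47 to 0.071), Nr2f2 (-0.33 to 0.023) and Evc (-0.30 to 0.052). Foxl2 ranged from -0.10 to 0.28, and was -0.15 with array weights. The causes of these turns were not tested. The 13 relative levels kept their direction in 9 alternatives each. The labels give no pairing, and deviations of same-numbered libraries correlated at 0.228, -0.059 and -0.059. The replicate block on libraries 1, 2 and 4 called 3239 genes, 1882 lower and 1357 higher, against 5407, 3183 and 2224, on 6 libraries in place of 7. The share of higher calls was 41.1% as deposited, 50.4% with median centring and 49.2% with quantile normalization. Of the other named genes, Egfr, Gata2 and Kif7 lost their calls in 9, 10 and 9 alternatives and Scube2 in 3, and the cause was not tested. Low counts limit Hhip, Shh, Dhh and Fgf2.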

Other observations

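The within-group spread of the controls had a second side outside the axis. In control 4, Wnt7a, a gene of luminal epithelium, was at 6.0 FPKM, against 77.6 FPKM in control 1 and 33.2 FPKM in control 2. The gland genes Spink1 and Wfdc3 were at 3.86 and 7.84 FPKM in control 4, while Spink1 was listed at 0 in the other 6 libraries and Wfdc3 was at 0.128 to 0.598 FPKM there. Areg, an epidermal growth factor family gene induced by progesterone in luminal epithelium, was at 1.61 FPKM in control 4, at 0.273 and 0.024 FPKM in controls 1 and 2 and at 0 to 0.016 FPKM in Foxl2LsL libraries. These genes were chosen after their values were seen, and none of them was called between the genotypes (Areg and Spink1 were below the level tested).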
